A study of Mus musculus with 15 samples.

Results

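Gene expression of Klf3 knockout (KO) and wild-type (WT) red cell precursors was compared on 7 of the 15 arrays of the series: the 3 arrays of KO and the 4 arrays of WT TER119 positive cells. All cells came from fetal livers of FVB/NJ mice of the stage E14.5 and were taken up on magnetic columns by beads against TER119, an antigen of maturing red cell precursors. The remaining arrays, 4 KO and 4 WT, held the TER119 negative cells of such livers and are used here to estimate the spread and for a comparison between the fractions. The labels give the genotype as Klf3 KO, leave the deleted part of the gene unnamed, and do not say whether replicates came from separate embryos. The spread behind the p-values is pooled over the arrays of both fractions and may be technical. The Klf3 probe set did not separate the genotypes (10.55, 10.34 and 10.52 in KO-labelled and 10.37, 9.94, 10.50 and 10.08 in WT arrays, difference 0.24 (SE 0.20, adjusted p = 1)), and the arrays are called KO-labelled for this reason. Values are log2 signals of Affymetrix MoGene 1.0 ST probe sets as deposited, and a difference of 1 is a 2-fold change. A gene is called here where limma's adjusted p for KO-labelled against WT was under 0.05.

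KLF3 attaches through zinc fingers to CACCC boxes of DNA and recruits the corepressor CtBP, so it is known mainly as a repressor. The erythroid activator KLF1 binds similar boxes and switches on the Klf3 gene, and KLF3 is known to hold back a set of genes in red cell precursors as these mature. In fetal liver such precursors divide, fill with haemoglobin, condense their nucleus and finally expel it, while their membrane and cytoskeleton are rebuilt around spectrin.

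Since CACCC is the core of the site that KLF proteins bind, the letters before the start of some of the genes that rose are shown first. Each line gives the 250 bases before a transcription start in the RefSeq table of assembly GRCm38.p6, in the direction of the gene, with CACCC or its reverse complement GGGTG in capitals. Klf8 and Lgals3 have been described as targets that KLF3 represses, a description that may rest in part on these arrays. Gng2 and B3gnt3 held the most matches among the rises ranked 11 to 50, Acp5 is shown for its longer boxes, and Crip1 and Cbr1 stand for families described below.
Klf8 (chrX:153359363-153359612, plus strand): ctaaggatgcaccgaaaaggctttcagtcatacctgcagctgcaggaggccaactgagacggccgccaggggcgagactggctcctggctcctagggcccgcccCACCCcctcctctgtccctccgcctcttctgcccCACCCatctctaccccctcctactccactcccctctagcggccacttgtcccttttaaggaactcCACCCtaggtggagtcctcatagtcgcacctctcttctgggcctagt
Lgals3 (chr14:47373610-47373859, plus strand): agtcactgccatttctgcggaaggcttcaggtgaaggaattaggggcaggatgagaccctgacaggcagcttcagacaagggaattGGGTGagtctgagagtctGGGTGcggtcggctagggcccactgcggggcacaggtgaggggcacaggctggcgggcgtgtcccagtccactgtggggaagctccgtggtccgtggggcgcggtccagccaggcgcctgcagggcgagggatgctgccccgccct
Acp5 (chr9:22135747-22135996, minus strand): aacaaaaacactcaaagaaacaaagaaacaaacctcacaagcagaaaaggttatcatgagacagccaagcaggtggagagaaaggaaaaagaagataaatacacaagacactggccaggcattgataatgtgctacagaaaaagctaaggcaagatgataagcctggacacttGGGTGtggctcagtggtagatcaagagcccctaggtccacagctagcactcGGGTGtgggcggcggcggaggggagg
Gng2 (chr14:19976694-19976943, minus strand): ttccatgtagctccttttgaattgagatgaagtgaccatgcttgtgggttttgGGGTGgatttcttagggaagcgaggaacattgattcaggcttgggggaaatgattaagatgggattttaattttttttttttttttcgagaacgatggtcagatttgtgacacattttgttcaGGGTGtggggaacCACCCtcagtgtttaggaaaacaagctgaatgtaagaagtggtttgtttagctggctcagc
B3gnt3 (chr8:71701801-71702050, minus strand): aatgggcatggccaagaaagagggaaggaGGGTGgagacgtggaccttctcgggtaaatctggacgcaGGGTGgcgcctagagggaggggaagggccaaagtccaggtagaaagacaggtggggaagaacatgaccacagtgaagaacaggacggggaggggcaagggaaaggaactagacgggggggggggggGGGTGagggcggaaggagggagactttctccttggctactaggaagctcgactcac
Crip1 (chr12:113151762-113152011, plus strand): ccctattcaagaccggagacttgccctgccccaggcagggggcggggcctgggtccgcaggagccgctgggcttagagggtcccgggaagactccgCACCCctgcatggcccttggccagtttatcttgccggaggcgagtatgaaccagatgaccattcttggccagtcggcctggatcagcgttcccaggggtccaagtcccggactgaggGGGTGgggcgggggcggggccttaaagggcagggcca
Cbr1 (chr16:93607587-93607836, plus strand): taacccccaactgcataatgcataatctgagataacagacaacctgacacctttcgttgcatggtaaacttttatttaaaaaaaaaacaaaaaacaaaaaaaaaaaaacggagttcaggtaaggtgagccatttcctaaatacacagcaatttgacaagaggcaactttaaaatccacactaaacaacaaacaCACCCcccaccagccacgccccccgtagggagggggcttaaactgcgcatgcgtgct
Klf8 has a further start in the table, not shown, with 1 match. The Acp5 window held 2 copies of the longer CCACACCC, the form bound by KLF1 in the adult beta-globin promoter, and the Gng2 window held 1. A CACCC match on either strand was found in 64.7% of the 184 windows of 138 called higher genes, in 73.1% of the 26 windows of 19 called lower genes and in 55.4% of all 19177 windows of measured genes. CCACACCC, every copy of which holds a CACCC, was found in 3.26%, 3.85% and 3.42%. The looser CCNCNCCC, which overlaps with both, was found in 71.7%, 61.5% and 55.9%. G and C made up 60.4% of the letters in windows of called higher genes, 58.2% in those of called lower genes and 56.4% in all windows, and the part of base composition in these shares was not tested. A match is a run of letters, not a bound site.

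**Figure D1:**
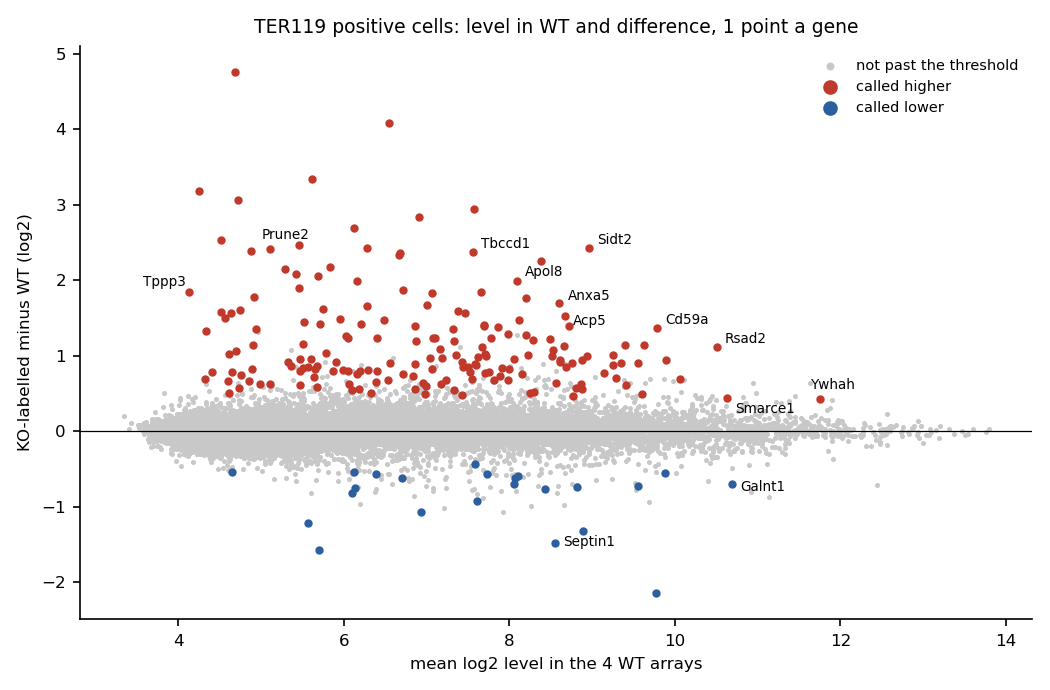
Each point is 1 of 19938 genes, with the mean log2 level in the 4 WT arrays of TER119 positive cells on the horizontal axis and the difference of KO-labelled minus WT on the vertical axis (log2). The 180 called rises (red) lie over almost the whole range of WT signals, from 4.12 to 11.75, and the 23 called falls (blue) are fewer and mostly smaller.

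Of 19938 genes 203 were called, or 1.02%, of which 180 stood higher in KO-labelled cells (0.903%) and 23 stood lower (0.115%). A change of at least 1.5-fold was reached by 180 of the called genes, again 0.903% of those tested. Of the 180 higher genes 22 rose at least 4-fold, 64 between 2-fold and 4-fold, 77 between 1.5-fold and 2-fold and 17 by less. Only Hsd3b6 among the lower genes fell more than 4-fold, 5 fell between 2-fold and 4-fold, 11 between 1.5-fold and 2-fold and 6 by less. The median rise was 0.98, or 1.97-fold, and the median fall was -0.73. In all 203 called genes every KO-labelled array lay beyond every WT array, and 10.1% of all genes showed such a gap.

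The rises were not restricted to probe sets with a dim signal in WT cells, as the plot of WT level against difference shows. In 56 of the 180 higher genes the WT mean lay under 6, in 78 between 6 and 8, and in 46 at 8 or more. The median rise was 1.05, 0.98 and 0.94 in these classes. Of all genes 11655, 4692 and 3591 fell into them. The file holds no detection calls, so whether signals under 6 lay above background is unknown, and the size of such rises is not exact.

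The counts depended on which arrays entered. With 1 of the 7 arrays left out at a time, between 148 and 184 genes were called (the fewest without KO replicate 3), between 134 and 165 higher and between 13 and 22 lower. With only the 7 arrays in the fit, 350 were called (270 higher, 80 lower), 197 of the 203 among them. Of the 203 genes, 126 kept the call in each of the 7 fits with 1 array left out, 117 of the higher and 9 of the lower. Those fits kept the TER119 negative arrays, whose spread enters each adjusted p. A call lost there does not by itself show that the difference moved. Over these fits the difference of Msn lay between 0.93 and 0.96 and that of Grap2 between -1.41 and -1.23. That of Igfbp1 ran more widely, from 0.76 to 1.18. KO-labelled arrays correlated with each other at 0.992 to 0.995, WT arrays at 0.987 to 0.994, and KO-labelled with WT arrays at 0.985 to 0.992.

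The same arrays also held markers of further cell types. Markers of TER119 positive red cell precursors had means of 11.52 to 11.57 in KO-labelled and 11.48 to 11.66 in WT arrays, with 0 of 13 called. Hepatocyte markers were present in all arrays, at means of 10.54 to 11.07 in KO-labelled and 10.38 to 11.16 in WT arrays, with 0 of 22 called. KO replicate 3 and WT replicates 1 and 3 held the lowest means. With the hepatocyte mean as a covariate on the 7 arrays, 489 genes were called, and 202 of the 203 genes were among them. Without KO replicate 3 and WT replicates 1 and 3, which leaves 2 arrays against 2, 109 genes were called (103 higher, 6 lower), of which 105 were among the 203. Macrophage markers had means of 7.96 to 8.16 in KO-labelled and 8.03 to 8.26 in WT arrays, with 1 of 22, Vsig4, called lower. Neutrophil markers had means of 5.07 to 5.41 against 4.92 to 5.18 with 0 of 19 called. The means of megakaryocyte and platelet markers did not overlap between the groups, at 8.29 to 8.60 in KO-labelled and 8.94 to 9.26 in WT arrays. Their median difference was -0.73, with 14 of 15 below 0 and 0 called. A call also depends on the spread in the TER119 negative arrays, which enters the SE. The means of stem and progenitor markers did not overlap either, at 5.77 to 5.92 in KO-labelled and 5.93 to 5.98 in WT arrays. Their median difference was -0.08, with 0 of 15 called. Stromal and stellate markers overlapped, at 6.66 to 7.26 in KO-labelled and 6.20 to 7.19 in WT arrays. Their median difference was 0.25, with 2 of 15 below 0 and 0 called. In a mixed fraction, fewer cells of a type and less RNA per cell cannot be told apart.

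**Figure D2:**
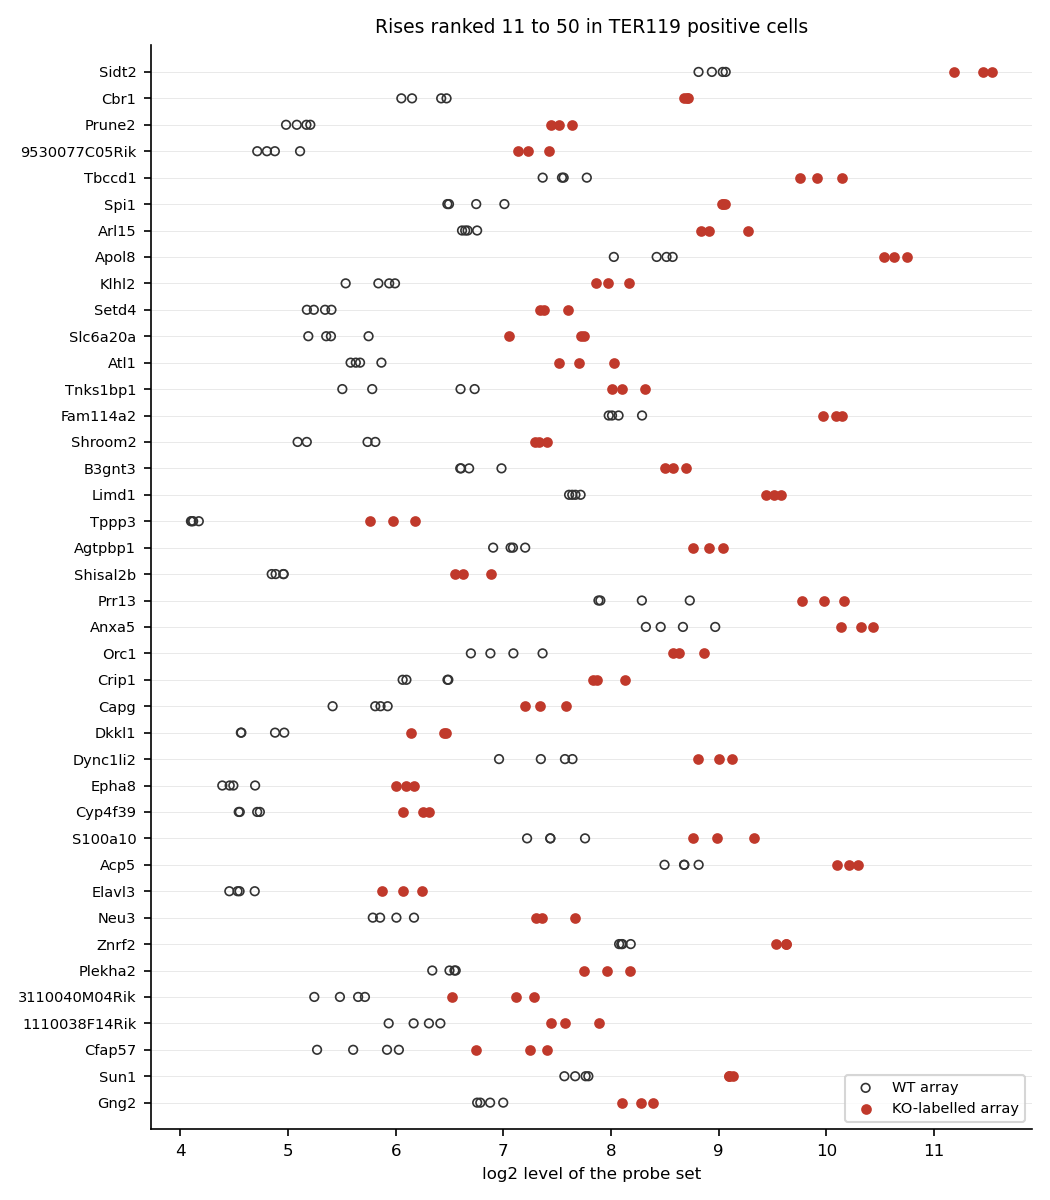
Log2 level of the probe set in each TER119 positive array for the 40 called rises ranked 11 to 50 by size, with 3 KO-labelled arrays as filled and 4 WT arrays as open points. In every row the KO-labelled points lie to the right of all WT points, from Sidt2 at the top, between 11.19 and 11.54, to Gng2 at the bottom, between 8.10 and 8.39.

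Of 113 measured lysosome and endosome genes 3 rose (2.65%, against 0.903% called higher among all genes), and Sidt2 led the rises beyond the 10 largest. Sidt2 encodes a lysosomal membrane protein that takes up nucleic acids. Its levels were 11.46, 11.19 and 11.54 in KO-labelled and 9.04, 9.07, 8.94 and 8.81 in WT arrays, a difference of 2.43 (SE 0.25, adjusted p = 1.63e-05). Apol8 encodes a member of the apolipoprotein L family, lipid-binding proteins of the cell interior. Its levels were 10.75, 10.63 and 10.54 in KO-labelled and 8.52, 8.42, 8.57 and 8.03 in WT arrays, a difference of 2.25 (SE 0.19, adjusted p = 2.42e-06). In both genes the gap between the groups was wider than the range of the arrays within either group. Acp5, which encodes the tartrate-resistant acid phosphatase of lysosomes, rose by 1.53 (SE 0.13, adjusted p = 2.85e-06), from 8.68, 8.81, 8.68 and 8.50 in WT and 10.29, 10.10 and 10.21 in KO-labelled arrays. Atp6v1e2, a subunit gene of the proton pump that acidifies lysosomes, rose by 1.15 (SE 0.16, adjusted p = 0.000592). Sidt2, Acp5 and Atp6v1e2 were the called members of the list, and 0 of it fell. The median over the list was 0.05, and over all genes it was -0.01. The gene lists used here and below were chosen with earlier results of these data known. Their shares are therefore a description and not an independent test.

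Of 109 measured genes of glycerolipid and sphingolipid metabolism 5 rose, or 4.59%, against 0.903% called higher among all genes, and 0 fell. Atp11b encodes a flippase subunit that moves phosphatidylserine to the inner leaflet, and it rose by 1.27 (SE 0.15, adjusted p = 0.00011). Agpat4 encodes an acyltransferase that makes phosphatidic acid. Its levels were 8.82, 8.81 and 8.73 in KO-labelled and 7.79, 7.52, 7.88 and 7.49 in WT arrays, a rise of 1.11 (SE 0.18, adjusted p = 0.00239). Ptdss1, which encodes a synthase of phosphatidylserine, rose by 0.73 (SE 0.11, adjusted p = 0.00145). Osbpl1a, a gene of the oxysterol-binding family, rose by 0.78 (SE 0.16, adjusted p = 0.0181), with adjusted p between 0.0535 and 0.132 without KO replicates 1 or 3 or without WT replicates 2 or 4. Apol8 was the remaining called member. Outside the list, Plekha2, which encodes a protein that binds a phosphoinositide of the plasma membrane, rose by 1.47 (SE 0.16, adjusted p = 3.51e-05). Neu3 encodes a sialidase that trims gangliosides at the plasma membrane and rose by 1.49 (SE 0.16, adjusted p = 2.4e-05). Mtmr1 encodes a phosphoinositide phosphatase and rose by 0.69 (SE 0.14, adjusted p = 0.017), with adjusted p between 0.0535 and 0.0982 without KO replicates 1, 2 or 3 or without WT replicates 1, 3 or 4. It was the called riser of the 108 inositol and phospholipase signalling genes, in which Pik3r1 fell (1.85% called, against 1.02% of all genes). Abhd5, which encodes a coactivator of triglyceride breakdown, rose by 0.94 (SE 0.11, adjusted p = 6.24e-05).

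Anxa5 encodes annexin A5, which binds phosphatidylserine where this lipid is exposed. Its levels were 10.32, 10.44 and 10.14 in KO-labelled and 8.46, 8.67, 8.32 and 8.97 in WT arrays, a difference of 1.69 (SE 0.27, adjusted p = 0.00175). Anxa7 rose by 0.89 (SE 0.10, adjusted p = 6.44e-05). Of 12 measured annexins these 2 were called (16.7%, against 1.02% of all genes), but the annexin and S100 groups were put together after the values were seen. Anxa2, whose groups did not overlap (9.04, 8.93 and 8.68 in KO-labelled and 7.50, 8.39, 7.84 and 8.31 in WT arrays), differed by 0.87 (SE 0.24, adjusted p = 0.163). Groups without overlap were found in 10.1% of all genes. S100a10 encodes the partner protein that joins annexin A2 at the membrane. Its levels were 8.98, 9.33 and 8.76 in KO-labelled and 7.22, 7.44, 7.44 and 7.76 in WT arrays, a difference of 1.56 (SE 0.27, adjusted p = 0.00516), with adjusted p = 0.0511 without KO replicate 2. It was the called gene of 16 S100 genes measured (6.25%, against 1.02% of all genes).

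Genes of the actin cytoskeleton rose in 10 of 159 measured members (6.29%, against 0.903% called higher among all genes), and 0 fell. The members that rose were Cttnbp2nl, Crip1, Capg, Tmsb10, Msn, Pdlim1, Myl7, Crip2, Myo5a and Vasp. The median over all 159 was -0.01, so the rises concerned a small share of the list, which was chosen with earlier results of these data known. Capg encodes a protein that caps the growing ends of actin filaments. Its levels were 7.20, 7.34 and 7.58 in KO-labelled and 5.86, 5.81, 5.41 and 5.93 in WT arrays, a difference of 1.62 (SE 0.26, adjusted p = 0.00211). Tmsb10 encodes thymosin beta 10, which binds single actin molecules. Its levels were 10.76, 10.78 and 10.78 in KO-labelled and 9.55, 9.57, 9.49 and 9.92 in WT arrays, a difference of 1.14 (SE 0.11, adjusted p = 9.96e-06). The KO-labelled arrays nearly coincided in this gene, and a further probe set differed by 1.13. Crip1 encodes a small LIM-domain protein. Its levels were 7.83, 7.87 and 8.13 in KO-labelled and 6.48, 6.49, 6.10 and 6.06 in WT arrays, a difference of 1.66 (SE 0.15, adjusted p = 4.53e-06), and its upstream letters, printed above, held 2 CACCC matches. Its neighbour Crip2 rose by 0.88 (SE 0.20, adjusted p = 0.0367), with adjusted p between 0.0733 and 0.174 with any 1 of the 7 arrays left out.

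Msn encodes moesin, which ties actin to the membrane. It rose by 0.94 (SE 0.20, adjusted p = 0.0295), with adjusted p between 0.0672 and 0.141 with any 1 of the 7 arrays left out. Pdlim1, a LIM-domain adaptor gene, rose by 0.91 (SE 0.15, adjusted p = 0.00307), and its other probe set differed by 0.66, which was not called. Myl7, a myosin light chain gene, rose by 0.91 (SE 0.14, adjusted p = 0.00112). Myo5a, which encodes a myosin that carries vesicles, rose by 0.86 (SE 0.20, adjusted p = 0.0494), with adjusted p between 0.0968 and 0.281 with any 1 of the 7 arrays left out. Vasp encodes a protein that helps actin filaments grow and rose by 0.63 (SE 0.12, adjusted p = 0.0114), with adjusted p between 0.05 and 0.0985 without KO replicates 1 or 3 or without WT replicate 3. All of these rises were smaller than those of Capg and Crip1.

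Further actin-linked genes stood outside that list. Shroom2 encodes an actin-binding protein that shapes cells. Its levels were 7.34, 7.41 and 7.30 in KO-labelled and 5.09, 5.74, 5.17 and 5.81 in WT arrays, a difference of 1.89 (SE 0.15, adjusted p = 8.02e-07). Its WT values fell into replicates 1 and 3, which were lower, and replicates 2 and 4. Tnks1bp1, which encodes a partner of tankyrase linked to actin, showed the same split among WT arrays, with 8.32, 8.10 and 8.01 in KO-labelled and 5.50, 6.60, 5.78 and 6.73 in WT arrays, and it rose by 1.99 (SE 0.23, adjusted p = 7.84e-05). WT replicates 1 and 3 were also the arrays with low hepatocyte markers. With the hepatocyte mean as a covariate the differences were 1.81 (adjusted p = 2.91e-06) for Shroom2 and 1.86 (adjusted p = 1.43e-05) for Tnks1bp1. Limd1 encodes a LIM-domain adaptor of cell contacts, and it rose by 1.85 (SE 0.24, adjusted p = 0.00022) from 7.72, 7.64, 7.61 and 7.67 in WT and 9.58, 9.51 and 9.44 in KO-labelled arrays. Iqgap1, which encodes a scaffold between actin and small GTPases, rose by 1.39 (SE 0.20, adjusted p = 0.000764).

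The list of microtubule and cilium genes was called in both directions, 6 higher and 2 lower of 419 measured, or 1.91% against 1.02% of all genes (median -0.02). The list takes in genes named Ccdc by their name alone, and not all of these act on microtubules or cilia. Its share is therefore not that of microtubule and cilium genes proper. Dync1li2 encodes a light intermediate chain of the motor dynein. Its levels were 9.12, 9.01 and 8.80 in KO-labelled and 7.35, 7.64, 6.96 and 7.57 in WT arrays, a difference of 1.60 (SE 0.20, adjusted p = 0.000175). Tube1, which encodes epsilon-tubulin of the centriole, rose by 1.23 (SE 0.21, adjusted p = 0.00473). Cep120, which encodes a centriole protein, rose by 0.68 (SE 0.16, adjusted p = 0.0494), with adjusted p between 0.0721 and 0.22 with any 1 of the 7 arrays left out. Cep97, which encodes a centriole cap protein, rose by 0.63 (SE 0.13, adjusted p = 0.0187), with adjusted p between 0.0631 and 0.139 without KO replicates 1, 2 or 3 or without WT replicates 3 or 4. Dctn6, which encodes a subunit of dynactin, rose by 0.46 (SE 0.09, adjusted p = 0.0124), with adjusted p between 0.0549 and 0.0999 without KO replicates 2 or 3 or without WT replicate 4. Hydin, a gene of motile cilia among the largest rises, was the remaining riser. The falls were Ccdc189, by 0.75 (SE 0.10, adjusted p = 0.000212), and Bbs7, by 0.57 (SE 0.12, adjusted p = 0.0198), with adjusted p between 0.0526 and 0.156 without KO replicates 1, 2 or 3 or without WT replicates 1 or 2 for Bbs7. Bbs7 encodes a subunit of the BBSome, which carries proteins into cilia.

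Other genes that act on tubulin rose but lay outside the list. Tppp3 encodes a protein that promotes tubulin assembly. Its levels were 5.97, 5.76 and 6.18 in KO-labelled and 4.10, 4.11, 4.17 and 4.12 in WT arrays, a difference of 1.85 (SE 0.13, adjusted p = 1.93e-07). Tbccd1 encodes a relative of a tubulin-folding cofactor that positions the centrosome. Its levels were 10.15, 9.91 and 9.76 in KO-labelled and 7.54, 7.78, 7.56 and 7.37 in WT arrays, a difference of 2.38 (SE 0.22, adjusted p = 5.69e-06). Agtpbp1 encodes an enzyme that removes glutamates from tubulin. Its levels were 9.04, 8.91 and 8.76 in KO-labelled and 7.20, 7.09, 6.91 and 7.07 in WT arrays, a difference of 1.84 (SE 0.16, adjusted p = 2.41e-06). Nde1, which encodes a dynein regulator, rose by 1.01 (SE 0.18, adjusted p = 0.00506), and Eml2, which encodes a microtubule-binding protein, by 0.51 (SE 0.10, adjusted p = 0.0107), with adjusted p between 0.0587 and 0.0663 without KO replicates 1, 2 or 3 for Eml2. Cfap57, named for the cilium, rose by 1.43 (SE 0.18, adjusted p = 0.000175) on its probe set with the highest mean, while its other probe set differed by -0.02 and was not called.

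Genes that tie the nucleus to the cytoskeleton rose in 3 of 12 measured members of the LINC complex and lamins (25%). The share called among all genes was 1.02%, and the group was put together after the values were seen. Sun1 spans the inner nuclear membrane and Syne3 the outer, where they meet to join nucleus and cytoskeleton, and Lmna encodes the lamins under the inner membrane. Levels of Sun1 were 9.13, 9.10 and 9.09 in KO-labelled and 7.76, 7.79, 7.67 and 7.57 in WT arrays, a difference of 1.41 (SE 0.18, adjusted p = 0.000249). Lmna stood at 9.0, 9.05 and 8.98 in KO-labelled and 8.15, 8.0, 8.01 and 8.05 in WT arrays, a difference of 0.95 (SE 0.14, adjusted p = 0.000801). Syne3 rose by 0.65 (SE 0.12, adjusted p = 0.00862), with adjusted p = 0.0878 without KO replicate 3. In Sun1 and Lmna the arrays of each group lay close together and far from the other group. In the wider list of septins, intermediate filaments and lamina, 3 of 81 rose and 2 fell, Septin1 and the filament gene Gfap (6.17% called). Gfap stood at 5.56, 5.55 and 5.64 in KO-labelled and 6.38, 6.0, 6.16 and 5.95 in WT arrays and fell by 0.54 (SE 0.11, adjusted p = 0.0165), with adjusted p between 0.0572 and 0.105 without KO replicates 1, 2 or 3 or without WT replicates 1 or 3.

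**Figure D3:**
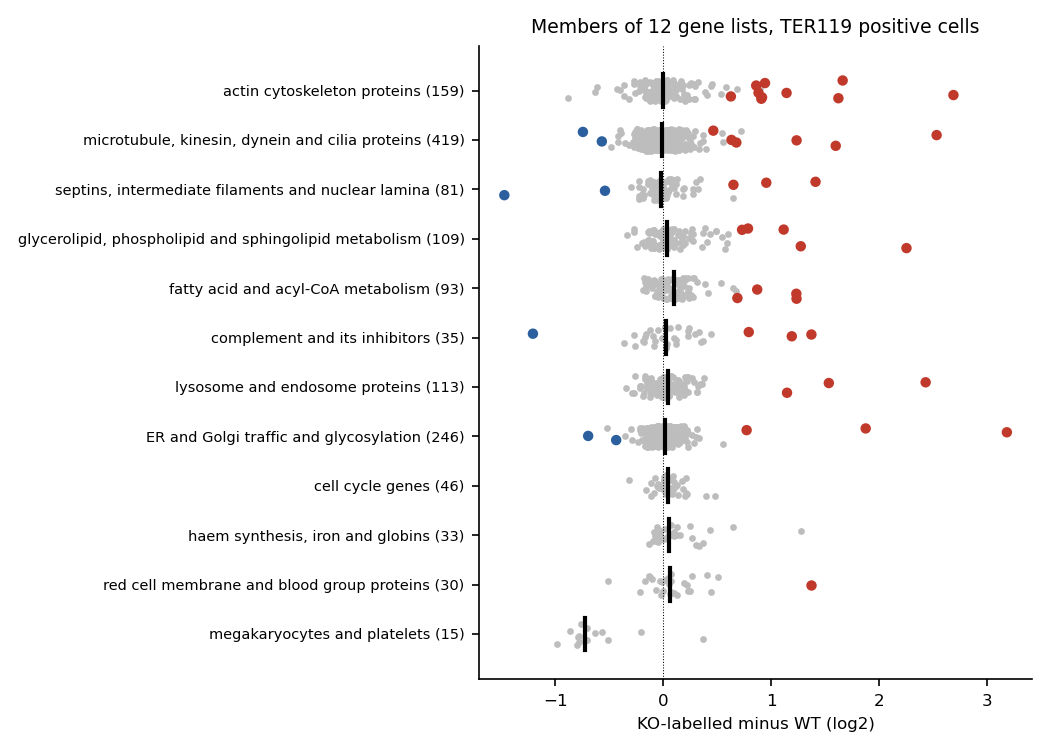
Difference of KO-labelled minus WT (log2) for every measured member of 12 gene lists, with the number measured in brackets, called rises in red, called falls in blue, other members in grey and the list median as a black bar. The medians of 11 lists lie between -0.02 and 0.10, and 9 of these lists hold called rises to the right of the median. The microtubule, septin, complement and endoplasmic reticulum lists also hold called falls to the left. The 15 megakaryocyte markers lie as a group near -0.73 with 0 called.

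Of 6 measured genes for surface proteins that keep complement off cells, 3 rose (50%, against 1.02% called among all genes). The group was put together after the values were seen. Cd59a and Cd59b encode inhibitors of the pore that complement forms, and Cd55 encodes an inhibitor of an earlier step. Levels of Cd59b were 8.20, 8.11 and 7.86 in KO-labelled and 7.06, 6.98, 6.49 and 6.94 in WT arrays, a difference of 1.19 (SE 0.16, adjusted p = 0.000301). Cd59a rose by 1.37. Levels of Cd55 were 8.06, 8.36 and 8.52 in KO-labelled and 7.31, 7.37, 7.52 and 7.88 in WT arrays, a difference of 0.79 (SE 0.15, adjusted p = 0.0103), with adjusted p = 0.0675 without KO replicate 2 and adjusted p = 0.0985 without KO replicate 3. Cd59a and Cd59b are neighbouring copies of a gene, and probes that match both would count the same RNA in each. Cr1l, which encodes the complement regulator Crry of mouse red cells, stood at 8.54, 8.52 and 8.40 in KO-labelled and 8.48, 8.50, 8.48 and 8.40 in WT arrays, a difference of 0.02 (SE 0.09, adjusted p = 1), and its groups overlapped. Cd55b differed by 0.29 (SE 0.11, adjusted p = 0.566) and Cd46 by -0.27 (SE 0.20, adjusted p = 1). Among 35 complement genes in all, 3 were called higher and Vsig4 was called lower (11.4% called, against 1.02% of all genes).

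Enzymes of fatty acid use were called in 4 of 93 measured genes, all higher (4.30%, against 1.02% of all genes, with a list median of 0.10). Acadsb encodes a mitochondrial dehydrogenase of short branched acyl-CoA. Its levels were 9.14, 8.86 and 9.05 in KO-labelled and 7.60, 8.12, 7.60 and 7.80 in WT arrays, a difference of 1.23 (SE 0.21, adjusted p = 0.00434). Acot9, Acot10 and Acot11 encode thioesterases that release fatty acids from CoA. Acot9 stood at 8.41, 8.13 and 8.39 in KO-labelled and 6.89, 7.15, 7.34 and 6.91 in WT arrays and rose by 1.23 (SE 0.14, adjusted p = 5.69e-05), Acot10 rose by 0.87 (SE 0.12, adjusted p = 0.000395) and Acot11 by 0.69 (SE 0.09, adjusted p = 0.000395). Acot9 and Acot10 are near-identical in sequence, so their rises are uncertain as separate measurements and may count as 1 in the share of the list. Cyp4f39 encodes a P450 enzyme that hydroxylates very long fatty acids. It stood at 6.25, 6.06 and 6.31 in KO-labelled and 4.55, 4.54, 4.74 and 4.71 in WT arrays, a rise of 1.57 (SE 0.15, adjusted p = 6.22e-06).

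Of 218 redox and detoxification genes 3 rose and 0 fell, a share of 1.38% near the 1.02% called among all genes. Cbr1 encodes a carbonyl reductase that acts on aldehydes, quinones and prostaglandins. Its levels were 8.68, 8.70 and 8.71 in KO-labelled and 6.15, 6.42, 6.05 and 6.47 in WT arrays, a difference of 2.43 (SE 0.15, adjusted p = 5.02e-08), and the KO-labelled arrays nearly coincided. Mgst3, which encodes a membrane-bound glutathione transferase, stood at 9.90, 9.96 and 9.89 in KO-labelled and 9.18, 9.20, 9.07 and 9.12 in WT arrays and rose by 0.77 (SE 0.11, adjusted p = 0.000592). Cyp4f39 was the remaining riser. Cbr1 lies next to Setd4, which encodes a histone methyltransferase. Setd4 stood at 7.60, 7.34 and 7.37 in KO-labelled and 5.17, 5.24, 5.40 and 5.34 in WT arrays, a difference of 2.15 (SE 0.10, adjusted p = 1.24e-09).

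Enzymes that build sugar chains moved in both directions. Of the 246 genes of endoplasmic reticulum, Golgi and glycosylation 2.03% were called, against 1.02% of all genes. B3gnt3 encodes a transferase that extends O-linked chains, and Gcnt1 encodes the transferase that branches them. Levels of B3gnt3 were 8.69, 8.58 and 8.50 in KO-labelled and 6.98, 6.68, 6.60 and 6.61 in WT arrays, a difference of 1.88 (SE 0.18, adjusted p = 9.08e-06). Gcnt1 rose by 0.77 (SE 0.12, adjusted p = 0.00181). Galnt1 encodes a transferase that starts O-linked chains. Its levels were 10.79, 10.60, 10.72 and 10.66 in the WT arrays and lay between 9.99 and 10.01 in the KO-labelled arrays, a difference of -0.70 (SE 0.12, adjusted p = 0.00443), and the KO-labelled arrays nearly coincided. Kdelr3, among the largest rises, and the cochaperone gene Dnajb2, which fell by 0.44 (SE 0.10, adjusted p = 0.0333) with adjusted p between 0.0514 and 0.22 with any 1 of the 7 arrays left out, completed the 3 rises and 2 falls among 246 genes of endoplasmic reticulum, Golgi and glycosylation. Atl1 encodes atlastin, a GTPase that fuses tubules of the endoplasmic reticulum, and stood at 8.03, 7.70 and 7.52 in KO-labelled and 5.58, 5.67, 5.63 and 5.87 in WT arrays, a rise of 2.06 (SE 0.16, adjusted p = 7.53e-07).

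Among signalling genes, Arl15 encodes a small GTPase of the Arf family. Its levels were 8.91, 8.84 and 9.27 in KO-labelled and 6.62, 6.76, 6.65 and 6.67 in WT arrays, a difference of 2.33 (SE 0.18, adjusted p = 7.73e-07). Rap1gap2, which encodes a protein that switches off the GTPase Rap1, rose by 0.96 (SE 0.11, adjusted p = 7.11e-05). With Rragd these were the 3 called of 80 genes for Ras, Rap, Arf and Rag GTPases (3.75%, against 1.02% of all genes), while 0 of 73 Rab genes were called. Gng2 encodes a gamma subunit of heterotrimeric G proteins and stood at 8.28, 8.39 and 8.10 in KO-labelled and 6.88, 6.76, 7.0 and 6.79 in WT arrays, a rise of 1.40 (SE 0.13, adjusted p = 4.14e-06). The 183 G protein-coupled receptor genes and the 80 MAP kinase cascade genes held 0 calls. Epha8, a receptor tyrosine kinase gene, rose by 1.58 (SE 0.10, adjusted p = 4.5e-08) from a low WT mean of 4.51. Socs2, which encodes a feedback inhibitor of cytokine signalling, rose by 0.76 (SE 0.17, adjusted p = 0.0375), with adjusted p between 0.0923 and 0.29 without KO replicates 1 or 3 or without WT replicates 2, 3 or 4, and its other probe set differed by 0.31, which was not called. Ip6k2, which encodes an inositol hexakisphosphate kinase, rose by 1.10 (SE 0.10, adjusted p = 5.42e-06).

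Genes that tag proteins with ubiquitin or recognise them for it were called in 3 lists, all higher, at 2.03% of kelch, BTB and F-box genes, 1.04% of RING and TRIM ligases and 5.71% of conjugating enzymes. The share among all genes was 1.02%, so the ligases stood at the background. Klhl2 encodes a kelch protein that brings targets to cullin ligases. Its levels were 8.17, 7.86 and 7.97 in KO-labelled and 5.94, 5.84, 5.54 and 5.99 in WT arrays, a difference of 2.17 (SE 0.23, adjusted p = 2.13e-05). Fbxl2 and Fbxl13, which encode F-box proteins, rose by 0.81 (SE 0.10, adjusted p = 9.82e-05) and 0.69 (SE 0.12, adjusted p = 0.00391). The 3 were called among 148 kelch, BTB and F-box genes. Znrf2 encodes a membrane-bound RING ligase. Its levels were 9.63, 9.63 and 9.53 in KO-labelled and 8.11, 8.09, 8.08 and 8.18 in WT arrays, a difference of 1.48 (SE 0.11, adjusted p = 5.26e-07). Of 192 RING and TRIM genes and related ligase subunits, Znrf2 and Socs2 were called. Among 35 conjugating enzymes, Ube2j1, which works at the endoplasmic reticulum, rose by 1.08 (SE 0.09, adjusted p = 1.89e-06), and Ube2w by 0.68 (SE 0.13, adjusted p = 0.0104), with adjusted p = 0.1 without KO replicate 1 for Ube2w. No call was made among 72 deubiquitinases or 44 autophagy genes.

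Transport genes were called at shares near that of all genes, 1.02%, with 0.571% of 350 solute carriers and 1.60% of 187 ion channel genes. Slc6a20a, which encodes a carrier of proline and related imino acids, rose by 2.08 (SE 0.18, adjusted p = 3.3e-06) from 5.35, 5.40, 5.75 and 5.19 in WT and 7.72, 7.75 and 7.05 in KO-labelled arrays. Slc52a3, a riboflavin carrier gene, rose by 0.66 (SE 0.12, adjusted p = 0.0085), with adjusted p = 0.0738 without KO replicate 2. Among ion channel genes the cation channel gene Trpm6 rose by 1.03 (SE 0.16, adjusted p = 0.00152), Trpv2 by 0.96 (SE 0.18, adjusted p = 0.0107) with adjusted p = 0.0681 without KO replicate 1 and adjusted p = 0.0913 without KO replicate 3, and the chloride channel gene Ano1 by 0.82 (SE 0.15, adjusted p = 0.0105) with adjusted p = 0.0982 without KO replicate 3. Trpm6 and Ano1 had WT means under 6. The 224 genes named Tmem and the 48 ABC transporters held 0 calls.

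In chromatin and DNA, Orc1 encodes the largest subunit of the complex that marks replication origins. Its levels were 8.86, 8.57 and 8.63 in KO-labelled and 7.36, 7.09, 6.88 and 6.70 in WT arrays, a difference of 1.68 (SE 0.21, adjusted p = 0.000137). Brca2 encodes a protein of recombination repair and rose by 1.38 (SE 0.20, adjusted p = 0.000642), from 8.07, 7.91, 7.74 and 7.73 in WT and 9.28, 9.15 and 9.29 in KO-labelled arrays. Parp10, which encodes an ADP-ribosyltransferase, rose by 0.61 (SE 0.09, adjusted p = 0.000969). These were the 3 called of 123 repair and replication genes (2.44%, against 1.02% of all genes). Of 46 cell cycle genes 0 were called, the highest being E2f2 at 0.47 (SE 0.14, adjusted p = 0.191). Supt3, Setd4 and Smarce1 were the called members of 210 chromatin genes, a share of 1.43% near the 1.02% of all genes. Smarce1 encodes a subunit of SWI/SNF remodelling complexes and rose by 0.44 (SE 0.08, adjusted p = 0.0107), with adjusted p between 0.0507 and 0.079 without KO replicates 1, 2 or 3. It had 2 further probe sets, at 0.41 and 0.43, both called. Of 412 zinc finger genes named Zfp 3 were called, a share of 0.728% near that of all genes. Zfp62 rose by 1.29 (SE 0.13, adjusted p = 2.11e-05), Zfp28 by 0.78 (SE 0.12, adjusted p = 0.00127) and Zfp639 by 0.64 (SE 0.12, adjusted p = 0.00765), with adjusted p = 0.0669 without KO replicate 2 for Zfp639.

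Genes known from myeloid cells rose in part. Spi1 encodes PU.1, the myeloid and lymphoid regulator, and its KO-labelled values of 9.04, 9.06 and 9.03 stood above WT values of 7.01, 6.75, 6.49 and 6.48. Treml2, which encodes a receptor of myeloid and lymphoid cells, rose by 1.13 (SE 0.15, adjusted p = 0.000222). Lilrb4a, which encodes an inhibitory receptor, stood at 6.43, 6.64 and 6.92 in KO-labelled and 5.69, 5.32, 5.95 and 5.09 in WT arrays and rose by 1.15 (SE 0.22, adjusted p = 0.0107), with adjusted p = 0.0542 without KO replicate 2 and adjusted p = 0.0997 without KO replicate 3. Its near-identical neighbour Lilr4b rose by 1.07 (SE 0.23, adjusted p = 0.0264), with adjusted p between 0.059 and 0.166 with any 1 of the 7 arrays left out, and the related Pirb rose by 0.63 (SE 0.11, adjusted p = 0.00433). These 4 receptors were called of 11 measured LILR, PIR and TREM genes (36.4%, against 1.02% of all genes), a group put together after the values were seen. Lsp1, which encodes an actin-binding protein of leukocytes, rose by 0.82 (SE 0.15, adjusted p = 0.00655), with adjusted p = 0.0641 without KO replicate 3. The defining macrophage genes Adgre1 (8.98, 9.12 and 8.84 in KO-labelled and 9.06, 9.07, 8.94 and 8.75 in WT arrays, difference 0.02) and Csf1r (9.08, 9.16 and 8.96 in KO-labelled and 9.03, 9.16, 9.06 and 8.94 in WT arrays, difference 0.02) overlapped between the groups. The macrophage marker Vsig4 and the lectin gene Cd209f were called lower, at -1.21 and -1.58. The granule genes Mpo (difference 0.18) and Elane (difference 0.14) were not called. S100a8, abundant in neutrophils, stood at 7.47, 6.45 and 6.15 in KO-labelled and 6.09, 5.91, 5.32 and 5.76 in WT arrays without overlap, as in 10.1% of all genes. Its difference of 0.92 (SE 0.29, adjusted p = 0.327) was not called. The part of myeloid cells in these rises was not tested.

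Lists tied to red cell differentiation held few genes each and gave from 0 to 2 calls, read against 1.02% among all genes. Of 40 erythroid transcription regulators Spi1 rose and Cbfa2t3 fell (5%), and of 30 genes of the red cell membrane and blood groups Cd59a rose (3.33%). Car1, which encodes the carbonic anhydrase abundant in red cells, stood at 9.98, 9.86 and 10.52 in KO-labelled and 9.27, 9.48, 9.24 and 9.0 in WT arrays and rose by 0.87 (SE 0.20, adjusted p = 0.0396), with adjusted p between 0.0949 and 0.301 without KO replicates 1 or 3 or without WT replicates 1, 3 or 4. With Klf8 it was called among 46 genes reported to be activated by KLF1 (4.35%). The 33 genes of haem, iron and globins held 0 calls (median 0.06), with Hba-x at 1.27 (SE 0.45, adjusted p = 0.476). Hba-x stood at 9.27, 9.19 and 9.63 in KO-labelled and 8.43, 7.74, 8.21 and 7.98 in WT arrays, without overlap, as in 10.1% of all genes. Its standard deviations were 0.23 and 0.30 in these groups. In KO and WT TER119 negative arrays, whose spread also enters the SE, they were 0.64 and 1.12. Bag1, which encodes a cochaperone of Hsp70, rose by 1.01 (SE 0.12, adjusted p = 9.16e-05), and Psmb5, which encodes a catalytic subunit of the proteasome, by 0.61 (SE 0.13, adjusted p = 0.0351), with adjusted p between 0.101 and 0.303 without KO replicates 1 or 2 or without WT replicates 2, 3 or 4 for Psmb5. Tspo, which encodes an outer mitochondrial membrane protein that binds porphyrins, rose by 0.86 (SE 0.15, adjusted p = 0.00688).

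The microRNA locus Mir144 and Mir451a, which GATA1 switches on in red cell precursors, was called as well, and its mature sequences are printed to show that they have different seeds. The seed, bases 2 to 8, is in capitals, and sequences and positions are RefSeq's on assembly GRCm38.p6.
mmu-miR-144-5p (chr11:78073010-78073032, plus strand): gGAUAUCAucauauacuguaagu
mmu-miR-144-3p (chr11:78073047-78073066, plus strand): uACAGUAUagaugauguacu
mmu-miR-451a (chr11:78073186-78073207, plus strand): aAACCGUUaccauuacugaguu
The probe set of Mir144 stood at 7.92, 8.08 and 8.06 in KO-labelled and 7.08, 6.73, 7.26 and 7.11 in WT arrays, a difference of 0.98 (SE 0.14, adjusted p = 0.000502). The probe set of Mir451a stood at 7.60, 7.47 and 7.34 in KO-labelled and 6.74, 6.55, 7.02 and 6.52 in WT arrays, a difference of 0.76 (SE 0.17, adjusted p = 0.0348), with adjusted p between 0.0806 and 0.233 without KO replicates 1, 2 or 3 or without WT replicates 1, 2 or 4. These were the called genes of 291 probe sets named for microRNAs (0.687%, against 1.02% of all genes). The RNA was labelled by in vitro transcription, per the labels' protocols, and whether the probes read the precursor or the mature forms is not stated.

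Other rises came from dim signals, with WT means under 6. Prune2 encodes a large protein with a lipid-binding domain. Its levels were 7.63, 7.52 and 7.44 in KO-labelled and 5.17, 4.98, 5.21 and 5.08 in WT arrays, a difference of 2.42 (SE 0.19, adjusted p = 6.8e-07), while a further probe set of the gene differed by -0.05 and was not called. Elavl3 encodes a neuronal RNA-binding protein and stood at 6.25, 5.87 and 6.06 in KO-labelled and 4.53, 4.45, 4.69 and 4.55 in WT arrays, a rise of 1.5 (SE 0.11, adjusted p = 5.27e-07). Dkkl1, which encodes a secreted relative of the Dickkopf proteins, rose by 1.61 (SE 0.13, adjusted p = 1.39e-06), and Shisal2b, a gene of the Shisa family, by 1.78 (SE 0.12, adjusted p = 1.97e-07). Padi2, which encodes an enzyme that turns arginine into citrulline, rose by 1.36 (SE 0.12, adjusted p = 3.39e-06). In the lists, 0 of 142 synaptic and neuronal genes and 0 of 103 homeobox genes were called. From a brighter signal, Igfbp1, which encodes a binding protein for insulin-like growth factors made by liver, stood at 8.54, 8.23 and 9.06 in KO-labelled and 7.09, 7.92, 7.88 and 7.60 in WT arrays and rose by 0.99 (SE 0.21, adjusted p = 0.0264), with adjusted p between 0.0745 and 0.212 without KO replicates 1 or 3 or without WT replicates 1 or 4. It was highest in KO replicate 3, where hepatocyte markers were low.

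Other rises among the ranks 11 to 50 have less known or no known products. 9530077C05Rik stood at 7.42, 7.23 and 7.14 in KO-labelled and 5.11, 4.88, 4.80 and 4.71 in WT arrays, a difference of 2.39 (SE 0.12, adjusted p = 3.92e-09). Fam114a2 rose by 1.98 (SE 0.14, adjusted p = 1.86e-07), and its neighbour Mfap3 rose by 1.0 (SE 0.12, adjusted p = 7.11e-05). Prr13 rose by 1.77 (SE 0.22, adjusted p = 0.000136). For 3110040M04Rik the rise was 1.45 (SE 0.17, adjusted p = 7.11e-05) and a further probe set differed by 1.74. The rise of 1110038F14Rik was 1.43 (SE 0.14, adjusted p = 1.26e-05). Rsad2, an antiviral enzyme, lies next to Cmpk2, which encodes a mitochondrial nucleotide kinase. Rsad2 rose by 1.12 and Cmpk2 by 0.91 (SE 0.13, adjusted p = 0.000608), and these were the called pair of 50 interferon response genes (4%, against 1.02% of all genes).

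**Figure D4:**
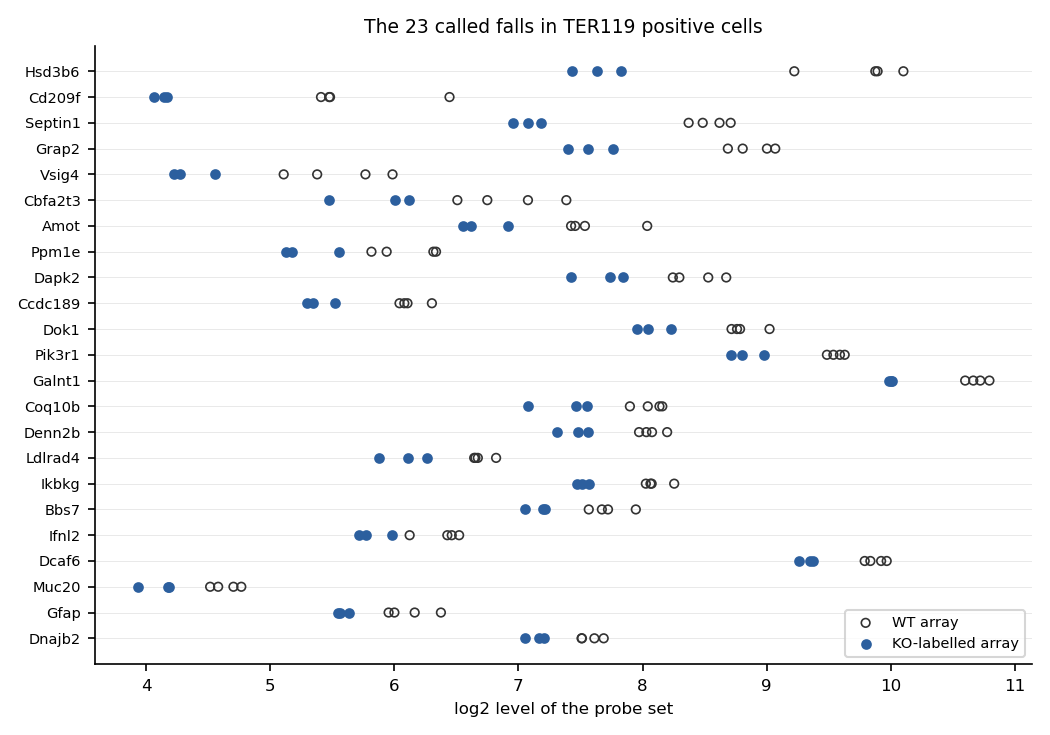
Log2 level of the probe set in each TER119 positive array for the 23 called falls, ordered by size, with 3 KO-labelled arrays as filled and 4 WT arrays as open points. In every row all filled points lie to the left of all open points, with the widest gap in Hsd3b6 at the top and narrow gaps in Ifnl2 and Dnajb2.

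The 13 falls beyond the largest 10 lay between -0.74 and -0.44. Dok1 encodes a docking protein that dampens tyrosine kinase signals. Its levels were 9.02, 8.76, 8.78 and 8.72 in WT and 8.05, 8.23 and 7.96 in KO-labelled arrays, a difference of -0.74 (SE 0.11, adjusted p = 0.000761). Pik3r1 encodes the regulatory subunit of phosphoinositide 3-kinase. Its levels were 9.54, 9.48, 9.59 and 9.63 in WT and 8.80, 8.97 and 8.71 in KO-labelled arrays, a difference of -0.73 (SE 0.16, adjusted p = 0.043), with adjusted p between 0.0811 and 0.238 with any 1 of the 7 arrays left out. Ikbkg encodes NEMO, the scaffold of the kinase that activates NF-kB, and fell by 0.59 (SE 0.12, adjusted p = 0.0218), with adjusted p between 0.0506 and 0.13 without KO replicates 1, 2 or 3 or without WT replicates 1, 2 or 3. Ldlrad4 encodes a membrane protein that restrains TGF-beta signalling and fell by 0.61 (SE 0.12, adjusted p = 0.0107), with adjusted p = 0.109 without KO replicate 2. Denn2b, which encodes an activator of Rab GTPases, fell by 0.62 (SE 0.11, adjusted p = 0.00883), with adjusted p = 0.0872 without KO replicate 3. Grap2, among the largest falls, encodes a further signalling adaptor, and it fell by 1.31 (SE 0.29, adjusted p = 0.0363), with adjusted p between 0.0607 and 0.223 with any 1 of the 7 arrays left out.

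Coq10b encodes a mitochondrial protein that binds coenzyme Q. Its levels were 8.16, 8.04, 8.14 and 7.90 in WT and 7.08, 7.55 and 7.46 in KO-labelled arrays, a difference of -0.70 (SE 0.11, adjusted p = 0.00239). Dcaf6, which encodes a substrate receptor of cullin ligases, fell by 0.55 (SE 0.11, adjusted p = 0.0192), with adjusted p between 0.0662 and 0.139 without KO replicates 1, 2 or 3 or without WT replicates 1 or 3. Muc20, a mucin gene, stood at 4.77, 4.52, 4.70 and 4.58 in WT and 3.93, 4.18 and 4.19 in KO-labelled arrays and fell by 0.54 (SE 0.11, adjusted p = 0.0137), with adjusted p between 0.0522 and 0.14 without KO replicate 1 or without WT replicates 1 or 3. Ifnl2, an interferon lambda gene, fell by 0.56 (SE 0.12, adjusted p = 0.0351), with adjusted p between 0.11 and 0.239 without KO replicates 2 or 3 or without WT replicates 1, 3 or 4. Of the 23 falls, 3 had a WT mean under 6.

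Among the largest falls, Cbfa2t3, which encodes a corepressor of erythroid GATA1 complexes, was called on 1 probe set at -1.06 with adjusted p between 0.0585 and 0.151 without KO replicate 2 or without WT replicates 1 or 3, while its other probe set differed by 0.00. Cd209f, a C-type lectin receptor gene, fell by 1.58 (SE 0.19, adjusted p = 0.000103), and with Lgals3, which rose, it was the called pair of 95 lectin genes (2.11%, against 1.02% of all genes). Septin1 and Galnt1 kept the call without any 1 array. The platelet genes Pf4 (11.11, 11.06, 10.93 and 11.44 in WT and 10.19, 10.08 and 10.53 in KO-labelled arrays, difference -0.87 (SE 0.34, adjusted p = 0.669)) and Gp9 (7.74, 7.41, 7.41 and 7.75 in WT and 6.68, 6.79 and 6.97 in KO-labelled arrays, difference -0.76 (SE 0.43, adjusted p = 1)) were lower in all 3 KO-labelled arrays than in any WT array but were not called. The SE pools the spread of both fractions. For Gp9 the standard deviation was 0.14 in KO-labelled and 0.19 in WT TER119 positive arrays. In TER119 negative arrays it was 1.08 and 0.67. For Pf4 it was 0.24 and 0.22 in TER119 positive arrays, and 0.77 and 0.58 in TER119 negative arrays. The missing calls therefore do not mean that the TER119 positive arrays overlapped. A gap between the groups was present in 10.1% of all genes, and the part of platelet RNA in the falls was not tested.

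**Figure D5:**
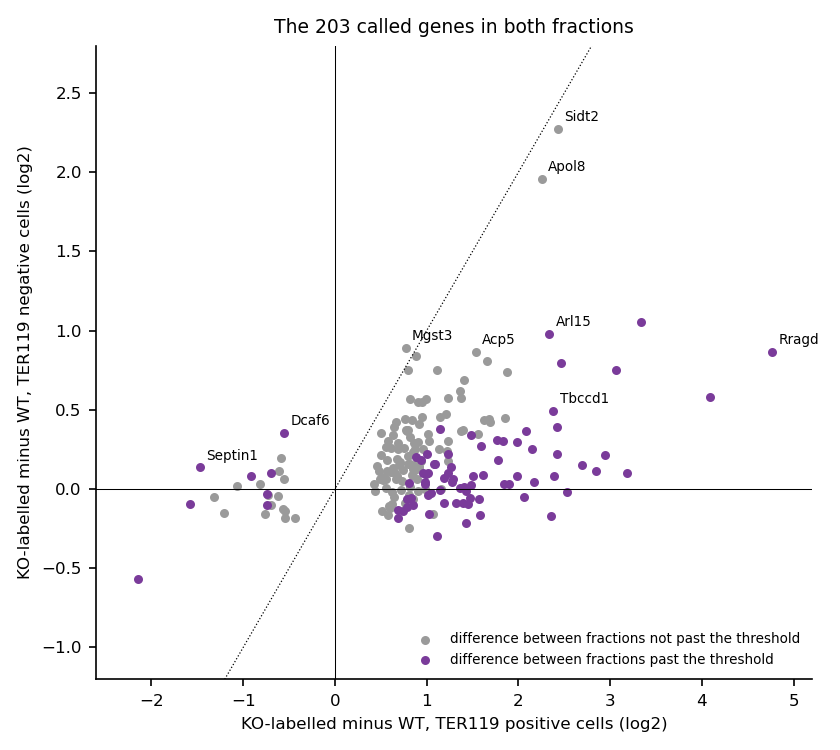
Difference of KO-labelled minus WT (log2) in TER119 positive cells on the horizontal and in TER119 negative cells on the vertical axis for the 203 called genes, with genes whose difference between the fractions was called in purple and the dotted line marking equal differences. Most genes lie near 0 on the vertical axis, and Sidt2, Apol8 and Mgst3 lie near the line.

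The fractions share no array, so the 203 genes could be followed into TER119 negative cells. Of the 180 higher genes 141 were above 0 there (78.3%, against 46.2% of all genes), but the median difference was only 0.15 (all genes, -0.02), and 9 were called. In TER119 negative cells 17 genes, or 0.0853%, were called in all. The genes called in both were Rragd, C1qtnf12, Klf8, Sidt2, Arl15, Apol8, Crip1, Acp5 and Mgst3. The difference between the effects in the fractions was called in 87 of all genes (0.436%), in 73 of the 180 higher genes and in 8 of the 23 lower genes. Since these 81 genes were first chosen for a called difference in TER119 positive cells, their larger effects there follow in part from that choice.

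Sidt2, Apol8 and Mgst3 were called in each fraction, while the tubulin genes Tppp3, Tbccd1 and Agtpbp1 rose more in TER119 positive cells. For Sidt2 the difference was 2.27 (adjusted p = 0.000154) in TER119 negative cells, and the effects differed by 0.16 (adjusted p = 0.999). Apol8 was at 1.96 (adjusted p = 5.69e-05), with a difference between effects of 0.30 (adjusted p = 0.999). For Mgst3 it was 0.89 (adjusted p = 0.000488) and -0.12 (adjusted p = 0.999). In these genes no difference between the fractions was called, which does not show that the effects were equal. Among cytoskeletal genes, Tppp3 was at 0.03 (adjusted p = 0.939) in TER119 negative cells and its effects differed by 1.82 (adjusted p = 2.61e-05). For Tbccd1, Agtpbp1 and Shroom2 the effects differed by 1.89 (adjusted p = 0.00515), 1.54 (adjusted p = 0.00133) and 1.86 (adjusted p = 8.71e-05). For the nuclear envelope genes Sun1 and Lmna this difference was 0.73 (adjusted p = 0.755) and 0.50 (adjusted p = 0.932), and neither was called.

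In Cbr1 and Setd4 the effects differed by 2.03 (adjusted p = 4.96e-05) and 1.89 (adjusted p = 8.6e-07). For Anxa5, Capg and Orc1 the differences between effects were 1.27 (adjusted p = 0.378), 1.19 (adjusted p = 0.474) and 1.23 (adjusted p = 0.0903), and none was called. Among the lower genes, Dcaf6 was at 0.35 (adjusted p = 0.564) in TER119 negative cells and its effects differed by -0.90 (adjusted p = 0.00902). Galnt1 and Dok1 also differed between the fractions, by -0.80 (adjusted p = 0.0393) and -0.71 (adjusted p = 0.0401), while for Coq10b the difference between effects was -0.60 (adjusted p = 0.208). Of the 23 lower genes 14 were below 0 in TER119 negative cells and 0 were called there.

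By position, the 203 called genes held 12 pairs of direct neighbours in the RefSeq order of measured genes, and both members of each pair rose. Beside those already named were Unc13d with Wbp2, Plec with Parp10, Ehbp1l1 with Fam89b, Prune2 with Gcnt1, and Rragd with Ube2j1. Since 180 of the 203 called genes rose, a shared direction says little, and the number of pairs given by chance was not estimated. Probes for the near copies Cd59a and Cd59b, or Lilr4b and Lilrb4a, may also read the same RNA. Unc13d, which encodes a protein that primes granules for release, rose by 1.24 (SE 0.13, adjusted p = 2.11e-05), and Wbp2 by 0.64 (SE 0.13, adjusted p = 0.014), with adjusted p between 0.059 and 0.105 without KO replicates 2 or 3 or without WT replicate 3 for Wbp2. Plec rose by 0.55 (SE 0.12, adjusted p = 0.0432), with adjusted p between 0.14 and 0.313 without KO replicates 1 or 3 or without WT replicates 1 or 3. Ehbp1l1 rose by 0.56 (SE 0.12, adjusted p = 0.0237), with adjusted p between 0.0717 and 0.125 without KO replicates 1, 2 or 3 or without WT replicates 2 or 4, and Fam89b by 0.98 (SE 0.12, adjusted p = 0.000195). Of the 100 measured genes within 50 places of Klf3 itself, only Pi4k2b was called, a share near that among all genes (1.02%). It encodes a lipid kinase and rose by 0.82 (SE 0.11, adjusted p = 0.000377).

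Ranked beyond 50, further rises outside the lists were spread over many functions. Tmx4, which encodes a thioredoxin-like membrane protein, stood at 10.25, 10.06 and 10.03 in KO-labelled and 8.80, 8.84, 8.64 and 8.59 in WT arrays, a rise of 1.40 (SE 0.15, adjusted p = 2.11e-05). Plp2 rose by 1.15 (SE 0.17, adjusted p = 0.000902), and its 2 further probe sets differed by 1.01, which was called, and 0.65, which was not. Ccng2, which encodes a cyclin of resting cells, rose by 1.02 (SE 0.14, adjusted p = 0.000386). Cast, which encodes the inhibitor of calpains, rose by 0.95 (SE 0.11, adjusted p = 5.9e-05). Folr2, a folate receptor gene, rose by 1.04 (SE 0.12, adjusted p = 9.16e-05), and Tinagl1, which encodes a matrix protein, by 1.19 (SE 0.11, adjusted p = 3.75e-06). In all, 93 of the 203 genes were in at least 1 of the 58 family and function lists, 110 were in none, and 18 of the 58 lists held no call.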

How the data were processed

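The labels give the RNA of the 15 samples as extracted with TRI-Reagent and purified on columns with DNase treatment, and hybridised to 1-colour arrays. The deposited values are log2 signals made by the authors with RMA and Partek, per the submitters' processing notes, with versions and genome build not given in the sources used here. Of 35399 probe sets, 21789 carry 1 gene symbol in the platform annotation, 1621 carry several and 11989 carry none, and the brightest probe set over all arrays stood for each of 19938 genes. A dim signal cannot be told from background in this file, and the number of arrays limits the precision. Group means were fitted to all 15 arrays with limma 3.58.1 in R 4.3.3, with eBayes, Benjamini-Hochberg adjustment over all genes, 2-sided tests and a threshold of 0.05. The fit was tried on simulated data in which a gene had the same spread in every group. That trial does not cover genes whose spread differs between the fractions. The difference between fractions was a contrast of the same fit, and SE is its moderated standard error. Genes named by rule were the called rises ranked 11 to 50, the called falls ranked from 11, and up to 4 called members of each list with at least 2. Others were named after their values were seen. The members and lists were chosen with earlier results of these data known. Alternatives covered the arrays fitted, the variance model, the normalization, dim genes, the choice of probe set, the replicate block and hepatocyte RNA. Promoter windows and microRNAs came from RefSeq tables, matched by symbol.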

Additional observations from a re-analysis of the deposited data

Results flagged for a closer look

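A WT array stood apart from the other 3 in 4 of the 104 genes named by rule (3.85%), where chance gives about 1 in 20. These were replicate 4 for Tmsb10 at 9.92, replicate 1 for Acot10 at 5.21, and replicate 2 for Cd209f at 6.45 and for Ldlrad4 at 6.82.

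In 57 of the 104 genes named by rule the KO-labelled minus WT difference differed between the fractions by the interaction term of limma's fit. Among all genes the share was 0.436%. The 104 genes were chosen for a called difference in TER119 positive cells, which is a part of this term. Their larger effects there follow in part from that choice. The values that follow are the difference in TER119 positive cells minus that in TER119 negative cells, on the log2 scale. Negative values belonged to falls: Septin1 at -1.61, Cd209f at -1.48, Dcaf6 at -0.90, Galnt1 at -0.80, Dok1 at -0.71 and Ccdc189 at -0.64. All other values were positive and belonged to rises.

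Among genes of actin, microtubules and cilia they were Tmsb10 at 0.76, Dync1li2 at 1.33, Cfap57 at 1.44, Agtpbp1 at 1.54, Tppp3 at 1.82, Shroom2 at 1.86, Tbccd1 at 1.89, Tnks1bp1 at 1.91, Cttnbp2nl at 2.54 and Hydin at 2.55. For genes of ubiquitin transfer they were Fbxl2 at 0.77, Fbxl13 at 0.82, Ube2w at 0.87, Ube2j1 at 0.92, Znrf2 at 1.45 and Klhl2 at 2.13. For small GTPases and signalling they were Rap1gap2 at 0.85, Arl15 at 1.36, Gng2 at 1.39, Plekha2 at 1.53, Epha8 at 1.75 and Rragd at 3.90. For lipid, redox and lysosomal genes they were Acot9 at 1.13, Neu3 at 1.14, Atp6v1e2 at 1.15, Atp11b at 1.23, Cyp4f39 at 1.63 and Cbr1 at 2.03.

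For membrane carriers, channels, the endoplasmic reticulum and the cell surface they were Cd59b at 1.12, Trpm6 at 1.19, Slc6a20a at 1.72, Atl1 at 2.12 and Kdelr3 at 3.09. For transcription and chromatin they were Zfp28 at 0.85, Zfp62 at 1.22, Setd4 at 1.89, Klf8 at 2.31, Spi1 at 2.53 and Supt3 at 2.73. The others were Rsad2 at 1.41, Elavl3 at 1.42, Prr13 at 1.46, Dkkl1 at 1.52, 3110040M04Rik at 1.55, Shisal2b at 1.59, 1110038F14Rik at 1.64, Fam114a2 at 1.69, Prune2 at 2.20, C1qtnf12 at 2.29, 9530077C05Rik at 2.31 and Lgals3 at 2.73.

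Probe sets outside the gene table were tested in a separate fit of all 35399 probe sets, with its own adjustment. Of 1621 probe sets with several gene symbols 14 were called (0.864%), 13 higher and 1 lower. Of 11989 without a symbol 32 were called (0.267%), 27 higher and 5 lower. Of 21789 with 1 symbol 184 were called in the same fit (0.844%). The share with several symbols was thus near that with 1 symbol, and the share without a symbol was lower.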

How the results depend on the processing

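Of 203 calls (180 higher, 23 lower, 180 at least 1.5-fold), counts within 1.5 times came from an intensity trend, robust eBayes, median centring, leaving out dim genes, averaging the probe sets of a gene and testing every probe set, between 172 and 230 in all. Quantile normalization gave 35 lower genes. With only the 7 TER119 positive arrays 350 genes were called, 80 of them lower. Without 1 array at a time, counts ran from 148 to 184 in all, from 134 to 165 higher, from 13 to 22 lower and from 144 to 171 at least 1.5-fold. A 2-fold minimum left 92 genes. A replicate block on replicates 1 to 3 gave 270 calls with 56 lower. Chosen after seeing the data were the same 6 arrays without the block and both settings on hepatocyte RNA. The 6 arrays without the block gave 264 calls with 52 lower. With the hepatocyte mean as a covariate on the 7 arrays, 489 genes were called, 360 higher, 129 lower and 273 at least 1.5-fold. Without KO replicate 3 and WT replicates 1 and 3 there were 109, with 103 higher and 6 lower, and 109 at least 1.5-fold. KO and WT arrays of the same number deviated from their group means with correlations of -0.22, 0.12 and 0.25. For arrays of different numbers the correlations ran from -0.39 to 0.40. These values cannot decide whether arrays of the same number share an origin, and the labels do not say. Of 1851 values of the 104 genes named by rule, 1695 kept direction and call, 156 kept the direction but not the call and 0 reversed, and 67 genes kept the call under every alternative run. The causes of these shifts were not tested.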
